A study of Homo sapiens with 15 samples.

Results

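HGrC1 cells, an immortalized human granulosa cell line that carries 2 normal FOXL2 alleles, were compared after transfection of the FOXL2C134W mutant together with FOXO1 and SMAD3 (FOXL2C134W + FOXO1) and after transfection of empty plasmids (Vectors). The comparison was chosen by transfection and not by any measured value. It held 6 of the 15 RNA-seq libraries of the series, 3 of each condition, lettered A, B and C. The other libraries, 3 each, came from cells given SMAD3 with FOXL2WT, with FOXL2C134W, or with FOXL2WT and FOXO1, so every condition except Vectors also received SMAD3. FOXL2 was the Flag-tagged human protein on the pCS2+ plasmid, and FOXO1 was the Flag-tagged 3A form on pCDNA3, which cannot be phosphorylated by AKT and stays in the nucleus. The expression was transient, with 4 h of transfection followed by 24 h without serum. The mutant was added to cells whose own FOXL2 alleles were normal, and no condition held FOXO1 without a transfected FOXL2. The sources used here do not say whether the 3 libraries of a condition came from separate cultures, so the p-values measure the spread between these libraries, which may be technical.

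FOXL2 is a forkhead transcription factor that granulosa cells of the ovary depend on for their identity, and the C134W substitution is the defining somatic mutation of adult granulosa cell tumors. FOXO1 is another forkhead factor, which is kept out of the nucleus by AKT in growth factor signaling and otherwise drives genes for cell cycle arrest, apoptosis and autophagy. SMAD3 carries the TGF-beta and activin signal from the receptors to DNA and binds beside forkhead factors. In many cells the NF-kappaB factors switch on cytokine genes, the interferon pathway switches on antiviral genes, and ATF4 switches on amino acid synthesis and transport under stress.

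The 6 libraries held between 20234179 and 24951854 estimated counts, and all 15 between 14962245 and 25339094. No library repeated another, since a chi-square test of replicate counts gave 2.2 to 6.88 for each degree of freedom, where sampling noise alone gives about 1. Granulosa markers other than FOXL2 were partly present. GATA4, a gonadal transcription factor, was at 154, 144 and 149 CPM (counts scaled to the library total) in Vectors A, B and C and at 135, 144 and 135 CPM in FOXL2C134W + FOXO1. WT1, a regulator of gonadal development, was at 45.0, 41.8 and 46.3 CPM and at 41.6, 47.7 and 44.3 CPM. The FSH receptor gene FSHR had 0 counts in all 6 libraries, where a count of 0 allows up to 3, CYP19A1, which encodes aromatase, had at most 2, and INHA, the inhibin alpha subunit, at most 4. The summed level of the granulosa markers other than FOXL2 was 248 to 260 CPM in Vectors and 240 to 257 CPM in FOXL2C134W + FOXO1, and none of the 10 tested was called in either direction.

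The transfected genes were examined first, since they check the labels. FOXL2 (ENSG00000183770, minus strand of chr3:138944224-138947137, GRCh38) was at 8.37, 9.54 and 8.28 CPM in Vectors and at 142, 176 and 139 CPM in FOXL2C134W + FOXO1 (log2 fold change 4.13, SE 0.13, edgeR quasi-likelihood adjusted p = 3.1e-13). FOXO1 (minus strand of chr13:40555667-40666641) was at 13.8, 12.2 and 13.5 CPM in Vectors and at 43.3, 47.2 and 39.1 CPM in FOXL2C134W + FOXO1 (1.71, SE 0.09, edgeR adjusted p = 1.3e-09). SMAD3 (plus strand of chr15:67063763-67195173) was at 263, 240 and 245 CPM in Vectors and at 379, 411 and 385 CPM in FOXL2C134W + FOXO1 (0.65, SE 0.05, edgeR adjusted p = 8.0e-08). All 3 transfected genes were higher in each library of FOXL2C134W + FOXO1 than in any Vectors library. With transcript-length offsets in DESeq2 the log2 fold change was 6.44 (SE 0.52) for FOXO1, 2.42 (SE 0.08) for SMAD3 and 4.13 (SE 0.13) for FOXL2, so that the size of the first pair depended on this setting. The counts do not separate plasmid from cellular transcripts, nor mutant from normal FOXL2.

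The transfected levels were not the same as in the neighboring conditions. SMAD3 was at 885, 833 and 812 CPM in FOXL2C134W and at 976, 957 and 975 CPM in FOXL2WT + FOXO1, all above the 379 to 411 CPM of FOXL2C134W + FOXO1. FOXO1 was at 104, 116 and 132 CPM in FOXL2WT + FOXO1, against 39.1 to 47.2 CPM in FOXL2C134W + FOXO1. FOXL2 was at 175, 146 and 121 CPM in FOXL2C134W, a range that overlaps that of FOXL2C134W + FOXO1, and at 376, 374 and 401 CPM in FOXL2WT + FOXO1. These gaps stand beside every direct comparison of the transfected conditions given below, and their part in it cannot be told apart from that of FOXO1 or of the FOXL2 form.

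**Figure D1:**
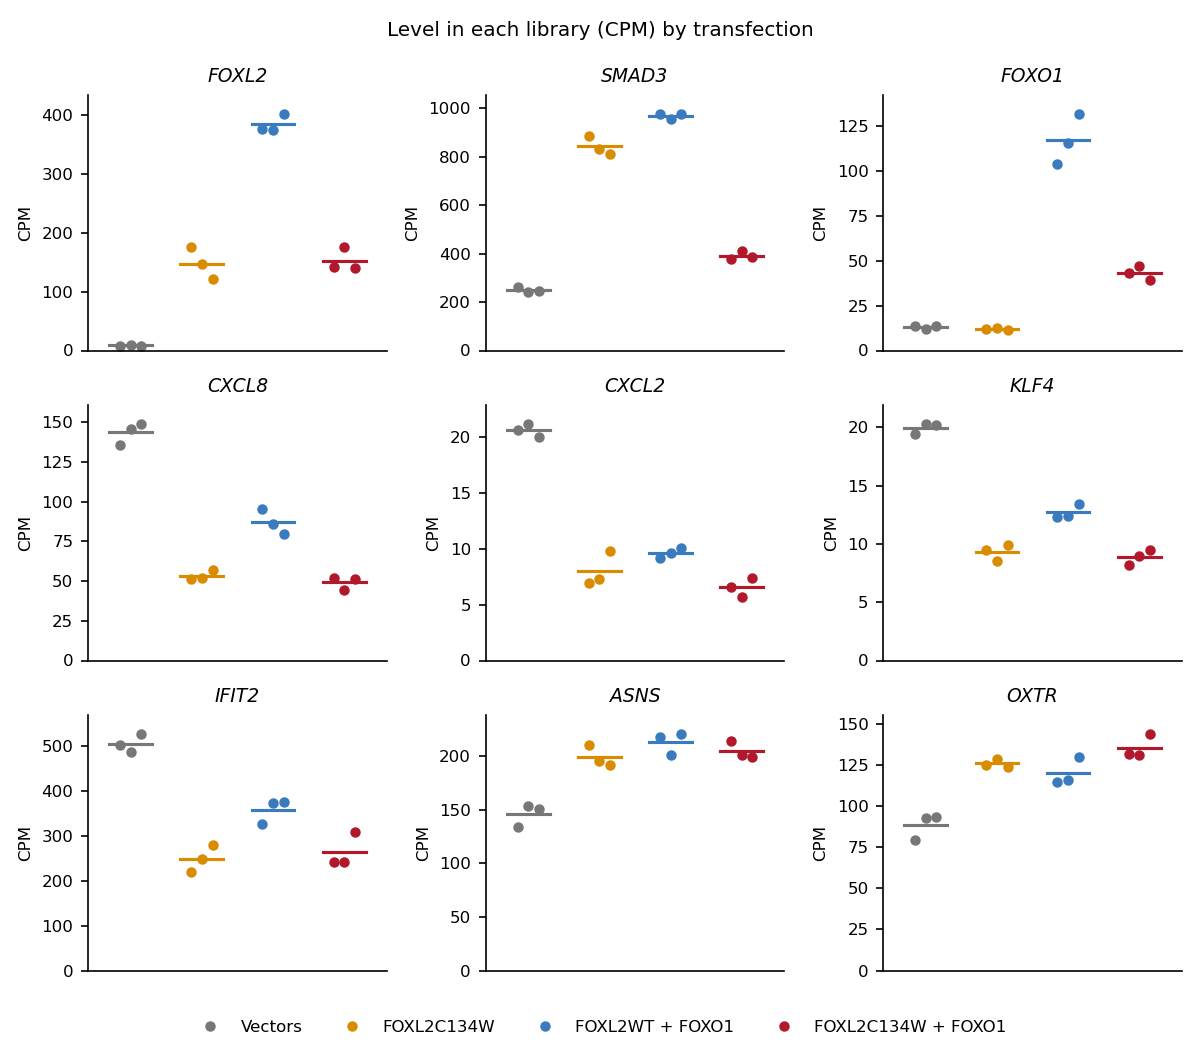
Level in CPM (counts scaled to the library total, y axis) of the 3 transfected genes and of 6 responding genes in each library (points) of 4 transfections (x axis), with the line at the mean of 3 libraries. CXCL8, CXCL2, KLF4 and IFIT2 were lower and ASNS and OXTR higher in every FOXL2C134W + FOXO1 library than in every Vectors library.

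The comparison with Vectors asks how the cells' RNA changed when the mutant, SMAD3 and FOXO1 were present together. Every called member of the cytokine, interferon and antigen presentation lists was lower in FOXL2C134W + FOXO1, and most called members of the lists of ATF4 and amino acid stress and of the actin cytoskeleton were higher. Of 13868 genes tested, 1294 (9.33%) passed an edgeR adjusted p of 0.05, of which 578 (4.17%) were higher and 716 (5.16%) lower. The changes were small for most genes, with a median size of 0.26 on the log2 scale over those called. A 1.5-fold change was exceeded by 138 called genes, 115 of them lower and 23 higher, and a 2-fold change by 42, 34 of them lower and 8 higher. Of these 42, 33 had a mean under 5 CPM and 9 a mean of at least 5 CPM, the transfected FOXL2 and FOXO1 among the 9. The libraries of both conditions did not overlap for 28.4% of all genes. The number called was 719 with transcript-length offsets in DESeq2, 2131 with gene length and GC content offsets, 764 without Vectors A and 842 without Vectors B. Since these are bulk samples of a cell line, fewer cells that express a gene and less RNA per cell cannot be told apart.

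**Figure D2:**
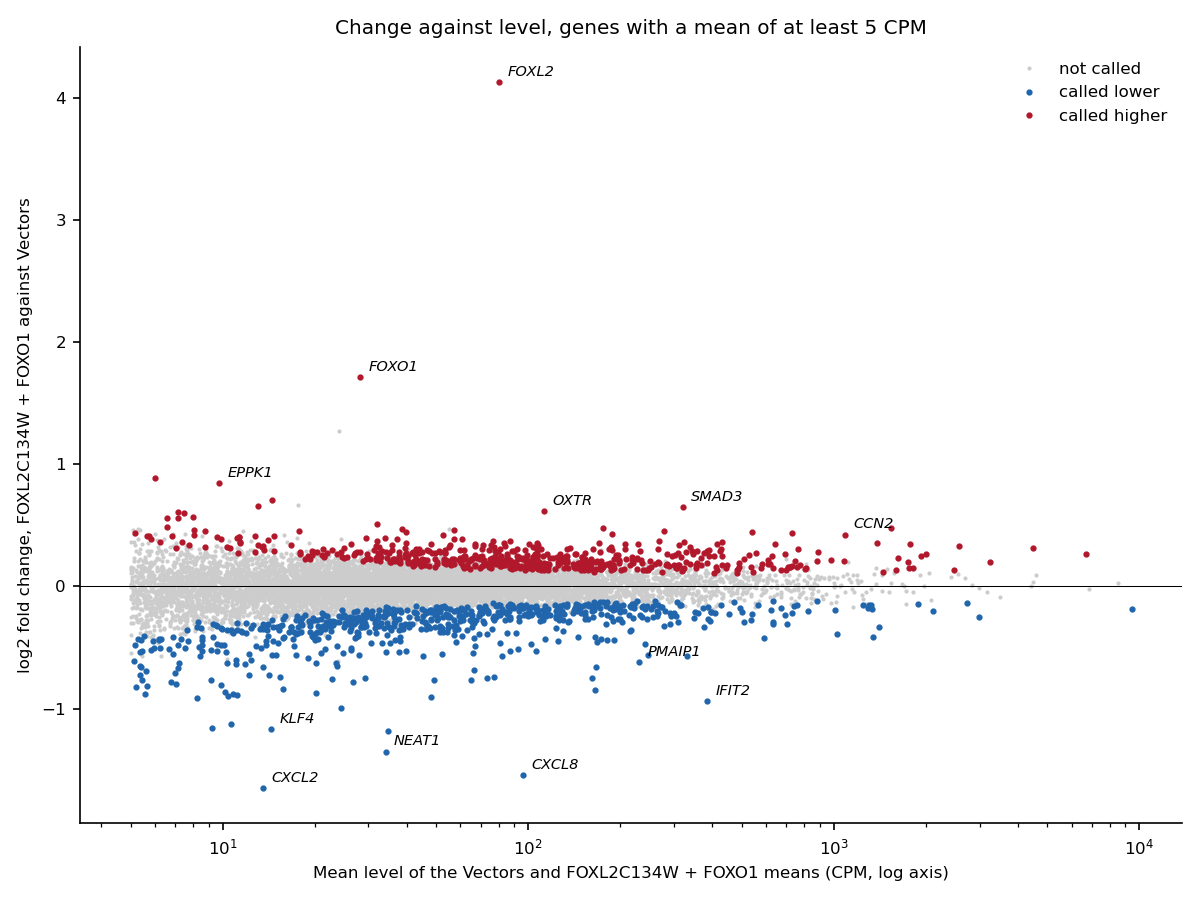
Log2 fold change of FOXL2C134W + FOXO1 against Vectors (y axis) by mean level in CPM (x axis, log scale) for the genes with a mean of at least 5 CPM, 1212 of 10614 of them called. Called genes lie on both sides of 0, and among those more than 2-fold away from it the endogenous genes lie on the lower side.

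Several of the genes that fell most encode secreted signals of inflammation. CXCL8 (plus strand of chr4:73740519-73743716), the neutrophil attractant interleukin-8, was at 136, 146 and 149 CPM in Vectors and at 51.8, 44.6 and 51.2 CPM in FOXL2C134W + FOXO1 (log2 fold change -1.54, SE 0.07, edgeR adjusted p = 6.1e-11). CXCL2 (minus strand of chr4:74097040-74099196), a related chemokine, was at 20.7, 21.2 and 20.0 CPM and at 6.60, 5.71 and 7.35 CPM (-1.65, SE 0.11, edgeR adjusted p = 3.4e-08). For both chemokines every FOXL2C134W + FOXO1 library lay far below every Vectors library, with little spread among the replicates. TNFSF10, the death ligand TRAIL, was at 54.8, 44.2 and 46.3 CPM and at 20.2, 18.6 and 25.0 CPM (-1.19, SE 0.12, edgeR adjusted p = 6.9e-06). TNFSF13B, the B cell survival factor BAFF, was at 11.2, 9.74 and 11.3 CPM and at 5.12, 4.98 and 7.01 CPM (-0.92, SE 0.13, edgeR adjusted p = 2.0e-04). The chemokine CCL4L2 also fell (-1.16), a value that is uncertain because near-identical gene copies can share its reads.

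The other strongly lowered genes had varied roles. NEAT1 (plus strand of chr11:65422774-65445540), the long noncoding RNA that builds nuclear paraspeckles, was at 50.1, 46.7 and 50.5 CPM in Vectors and at 18.1, 21.1 and 18.4 CPM in FOXL2C134W + FOXO1 (-1.35, SE 0.10, edgeR adjusted p = 5.9e-08). KLF4 (minus strand of chr9:107484852-107490482), a zinc finger transcription factor, was at 19.4, 20.3 and 20.2 CPM and at 8.17, 8.95 and 9.46 CPM (-1.17, SE 0.08, edgeR adjusted p = 2.6e-08). Neither gene overlapped between the conditions. ABCA1, which exports cholesterol from cells, was at 13.8, 14.7 and 15.4 CPM and at 6.23, 6.30 and 7.57 CPM (-1.12, SE 0.12, edgeR adjusted p = 6.3e-06). GBP4, an interferon-induced guanylate-binding protein, was at 34.6, 31.2 and 31.5 CPM and at 15.4, 15.2 and 18.2 CPM (edgeR adjusted p = 4.0e-07).

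Among genes with a mean of at least 5 CPM, the transfected ones apart, none rose by more than 2-fold. OXTR, the oxytocin receptor, was at 79.3, 93.1 and 93.6 CPM in Vectors and at 132, 131 and 144 CPM in FOXL2C134W + FOXO1 (log2 fold change 0.61, SE 0.06, edgeR adjusted p = 6.9e-06). ANGPTL4, a secreted inhibitor of lipoprotein lipase, was at 10.3, 10.8 and 11.8 CPM and at 20.0, 17.1 and 16.9 CPM (0.71, SE 0.10, edgeR adjusted p = 1.3e-04). EFNB2, the ligand ephrin-B2, was at 6.45, 6.77 and 6.12 CPM and at 9.46, 8.69 and 10.5 CPM (0.57, SE 0.09, edgeR adjusted p = 4.0e-04). In these 3 genes the lowest FOXL2C134W + FOXO1 library stood well above the highest Vectors library. EPPK1, which encodes the cytoskeletal linker epiplakin, was at 6.58, 6.87 and 7.36 CPM and at 10.9, 16.0 and 10.5 CPM (0.84, SE 0.14), with library B above the others. The remaining genes of the 10 largest rises were low in level and rested on smaller counts, namely C4orf48 (0.89), NDUFAF8 (0.66), CITED4 (0.61), NPDC1 (0.60), PDF (0.56) and ADM2 (0.56). C4orf48 was at 2.62, 4.89 and 5.08 CPM in Vectors, so that library A lay well below the others.

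Of the 26 pathway lists examined, that of NF-kappaB response and cytokines had the largest share of members called lower. Of its 39 tested genes 24 were lower and 0 higher, 61.5% against the 5.16% of all genes, and the median log2 fold change was -0.47 against 0.00 over all genes. Decreases past 1.5-fold were seen in 16 of the 24 and past 2-fold in 7. Under the other processing settings tried, between 21 and 25 members were called lower. The summed level of the list was 3073 to 3149 CPM in Vectors and 2497 to 2596 CPM in FOXL2C134W + FOXO1, with no overlap between the conditions.

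Some promoters of the list hold the letters of the NF-kappaB element, and 5 that do are shown, all of lowered genes described here. The sequences are the 130 bases before the transcription start in RefSeq (GRCh38.p14), written 5′ to 3′ on the strand of the gene, with a match to GGANTTTCC on either strand in capitals. CXCL1 and IL6 were added after their values were seen. The windows are chr4:73740439-73740568 (plus) for CXCL8, chr4:74099196-74099325 (minus) for CXCL2, chr4:73869263-73869392 (plus) for CXCL1, chr7:22727070-22727199 (plus) for IL6 and chr6:137867129-137867258 (plus) for TNFAIP3.
CXCL8: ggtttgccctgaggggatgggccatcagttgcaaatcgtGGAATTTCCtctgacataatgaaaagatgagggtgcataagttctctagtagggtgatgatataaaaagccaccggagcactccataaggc
CXCL2: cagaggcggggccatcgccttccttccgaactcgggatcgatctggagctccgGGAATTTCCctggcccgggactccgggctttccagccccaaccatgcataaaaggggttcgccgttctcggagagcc
CXCL1: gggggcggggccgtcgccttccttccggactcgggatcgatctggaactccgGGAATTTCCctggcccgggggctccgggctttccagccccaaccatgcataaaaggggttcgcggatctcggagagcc
IL6: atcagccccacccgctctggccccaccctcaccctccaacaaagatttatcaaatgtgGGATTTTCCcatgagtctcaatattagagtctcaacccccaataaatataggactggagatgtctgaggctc
TNFAIP3: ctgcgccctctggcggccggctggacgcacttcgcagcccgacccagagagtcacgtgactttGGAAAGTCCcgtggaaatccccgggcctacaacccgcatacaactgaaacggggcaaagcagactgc
The matches begin 91, 77, 78, 72 and 67 bases before the start, and that of TNFAIP3 is on the opposite strand. Among the 33 NF-kappaB list members with a promoter in the table, 14 (42.4%) held the letters, 11 of the 20 called lower (55%) among them, in the 300 bases from 250 before to 50 after the start, compared with 1.64% of all 27305 promoters. Of the called genes with a promoter in the table, 28 of 549 lower genes (5.1%) and 6 of 463 higher genes (1.3%) held them. A match describes the letters only and is not evidence of a bound site.

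Chemokines, cytokines and the feedback inhibitors of the pathway were all among the lowered members. TNFAIP3, the deubiquitinase A20 that dampens NF-kappaB signaling, was at 95.0, 88.8 and 92.3 CPM in Vectors and at 53.7, 53.9 and 56.8 CPM in FOXL2C134W + FOXO1 (log2 fold change -0.75, SE 0.05, edgeR adjusted p = 4.4e-08). NFKBIA, the inhibitor IkappaB-alpha, was at 117, 121 and 121 CPM and at 87.9, 85.1 and 85.2 CPM (-0.47, SE 0.04, edgeR adjusted p = 1.2e-07). The 3 libraries of a condition lay close together for both inhibitors, and the conditions did not overlap. SOD2, the mitochondrial superoxide dismutase (-0.85), NFKBIZ, the nuclear regulator IkappaB-zeta (-0.90), and the adhesion molecule ICAM1 (-0.37) were lower too. The attractants CCL2 (-0.74) and CCL5 (-0.79), the cytokine IL6 (-0.89), CXCL10 (-1.51), CXCL1 (-1.48) and CXCL3 (-1.59) were also lower, IL6 and the last 3 from low levels. CXCL1, CXCL2 and CXCL3 have similar sequences, so the division of reads among them is uncertain.

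The genes of the NF-kappaB subunits moved less than the targets. RELA was at 89.1, 89.7 and 86.5 CPM in Vectors and at 82.7, 89.3 and 84.2 CPM in FOXL2C134W + FOXO1 (-0.05, SE 0.05, edgeR adjusted p = 0.56). NFKB1 differed by -0.05 (SE 0.05, edgeR adjusted p = 0.65), and both subunits overlapped between the conditions. NFKB2 was lower (-0.21, SE 0.05, edgeR adjusted p = 0.021), RELB had -0.25 (edgeR adjusted p = 0.077) and REL -0.20 (edgeR adjusted p = 0.42).

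Interferon response genes other than IFNB1 were lower by smaller factors. Of 52 tested members 25 were lower and 0 higher, 48.1% against 5.16% of all genes, with a median log2 fold change of -0.17. Other processing settings gave 18 to 35 lower members. The summed level of the list was 21325 to 22138 CPM in Vectors and 18573 to 19620 CPM in FOXL2C134W + FOXO1. Leukocyte markers were near 0 in all 6 libraries except CD68 and CD14. CD3E had 0 counts, and PTPRC, the pan-leukocyte surface protein CD45, had at most 5. CD68, which other cells also express, was lower in FOXL2C134W + FOXO1 (-0.24), and it set the summed level of the 7 leukocyte markers, 105 to 118 CPM in Vectors and 91.3 to 97.6 CPM in FOXL2C134W + FOXO1.

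IFIT2, which binds viral RNA and restrains its translation, was at 502, 486 and 526 CPM in Vectors and at 241, 241 and 309 CPM in FOXL2C134W + FOXO1 (log2 fold change -0.94, SE 0.09, edgeR adjusted p = 1.6e-06). RSAD2, the antiviral enzyme viperin, was at 199, 194 and 216 CPM and at 115, 112 and 135 CPM (-0.75, SE 0.07, edgeR adjusted p = 1.0e-06). In both genes library C of FOXL2C134W + FOXO1 was the highest of its condition and still below every Vectors library. OASL, an oligoadenylate synthetase-like sensor cofactor, was at 385, 391 and 406 CPM and at 265, 255 and 279 CPM (-0.57, SE 0.04, edgeR adjusted p = 8.8e-08). CMPK2, a mitochondrial nucleotide kinase (-0.43), IFIT1, another viral RNA binder (-0.39), and ISG15, the ubiquitin-like modifier (-0.31), fell by less. IFNB1, interferon beta itself, was called lower with the largest fall of the list (-3.89), from few counts. It had 7 counts over the 3 FOXL2C134W + FOXO1 libraries, near the detection limit, and 108 over the 3 Vectors libraries. This was a scaled level of 6.40% of Vectors with an exact 95% counting interval of 2.51% to 13.6%.

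The genes of the factors that carry the interferon signal were uneven. IRF9 was at 65.4, 68.0 and 70.0 CPM in Vectors and at 75.2, 72.4 and 68.8 CPM in FOXL2C134W + FOXO1, which overlapped and did not pass the test (0.09, edgeR adjusted p = 0.37). STAT2 was lower (-0.34, edgeR adjusted p = 2.5e-04), as was the transcription factor IRF1 (-0.35, edgeR adjusted p = 2.9e-04).

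The promoters of IFIT1, chr10:89392493-89392622 (plus), and ISG15, chr1:1013367-1013496 (plus), are printed in the same way. The capitals mark the letters of the interferon-stimulated response element, GAAA followed after any 2 bases by a further GAAA, on either strand. Both were chosen after their values were seen, as clear cases of the element.
IFIT1: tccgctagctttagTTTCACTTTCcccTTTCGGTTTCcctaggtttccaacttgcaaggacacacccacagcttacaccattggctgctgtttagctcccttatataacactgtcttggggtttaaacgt
ISG15: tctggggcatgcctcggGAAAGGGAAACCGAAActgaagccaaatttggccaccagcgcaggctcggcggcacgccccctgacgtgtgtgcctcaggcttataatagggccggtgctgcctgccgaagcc
IFIT1 holds 2 matches on the opposite strand, beginning 116 and 103 bases before the start, and ISG15 holds 2 overlapping matches beginning 113 and 107 bases before it. The letters occurred in 25 of 42 list members with a promoter in the table (59.5%), against 3.65% of all promoters, and in 40 of 549 lower genes (7.29%) and 12 of 463 higher genes (2.59%). Of the 18 members called lower that have a promoter in the table, 10 (55.6%) held the letters.

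The antigen presentation list holds genes that display peptides on class I molecules. Of 18 tested members 10 were lower and 0 higher, 55.6% against 5.16% of all genes called lower, with a median log2 fold change of -0.15 and no member above -0.02. Without Vectors B or without Vectors C 6 of them were called. HLA-E, a nonclassical class I molecule, was at 422, 409 and 425 CPM in Vectors and at 332, 328 and 336 CPM in FOXL2C134W + FOXO1 (-0.33, SE 0.04, edgeR adjusted p = 2.9e-05). TAP1, a subunit of the peptide transporter (-0.33), TAPBP, the loading factor tapasin (-0.29), and CALR, the chaperone calreticulin (-0.18), fell as well. B2M, the class I light chain, was at 3163, 3296 and 3278 CPM and at 2928, 2588 and 2682 CPM (-0.25, edgeR adjusted p = 0.008). Levels of HLA genes are uncertain, since these genes resemble one another.

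**Figure D3:**
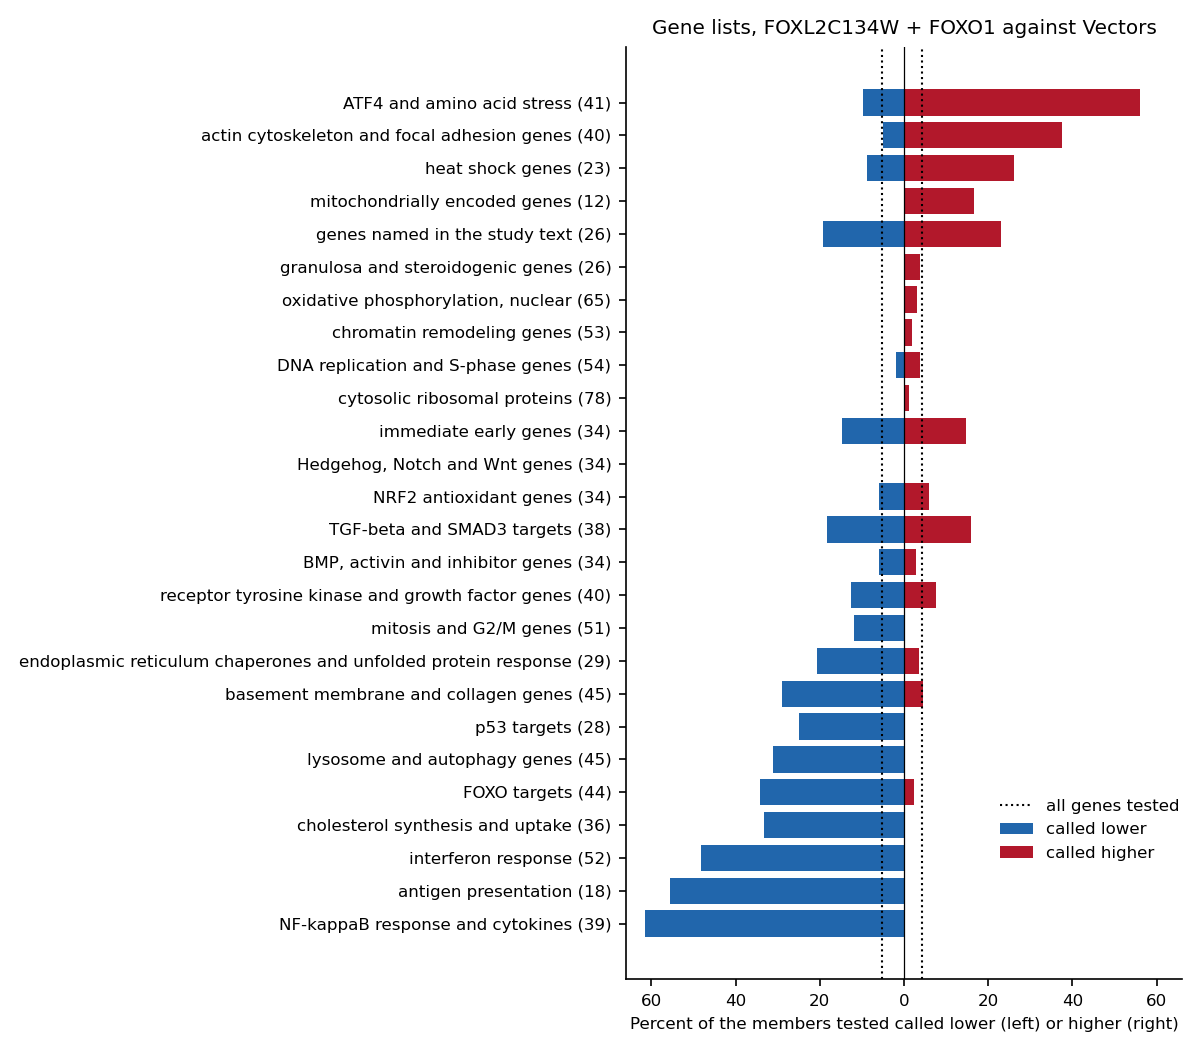
Percent of tested members of each pathway list (x axis) called lower or higher in FOXL2C134W + FOXO1 against Vectors, by list (y axis), with dotted lines at the 5.16% of all genes called lower and the 4.17% called higher. NF-kappaB, antigen presentation and interferon genes show the largest lower shares, and ATF4 and actin genes the largest higher shares.

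More members of the ATF4 and amino acid stress list were called higher than lower. Of 41 tested members 23 were higher, 4 lower and 14 not called, a higher share of 56.1% against 4.17% of all genes called higher, with a median log2 fold change of 0.24. Between 23 and 30 members were higher under the other settings and 19 to 24 when any library was left out. The summed level was 7747 to 8162 CPM in Vectors and 9073 to 9249 CPM in FOXL2C134W + FOXO1. ASNS, asparagine synthetase, was at 134, 154 and 151 CPM and at 214, 201 and 199 CPM (log2 fold change 0.48, SE 0.06, edgeR adjusted p = 5.6e-05). PSAT1, an enzyme of serine synthesis, was at 216, 249 and 240 CPM and at 330, 329 and 310 CPM (0.46, SE 0.06, edgeR adjusted p = 6.6e-05). In both genes Vectors A was the lowest library and the conditions did not overlap. GARS1, the glycyl-tRNA synthetase, and STC2, the secreted glycoprotein stanniocalcin-2, each rose by 0.34 on the log2 scale. ATF4 itself was at 373, 405 and 405 CPM and at 426, 426 and 430 CPM, which did not pass the test (0.12, SE 0.04, edgeR adjusted p = 0.08).

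The 4 members that fell, 2 of them called without Vectors C or with transcript-length offsets in DESeq2, were ATF3, a repressor induced by many stresses (-0.65), DDIT3, the proapoptotic factor CHOP (-0.27), PPP1R15A, the phosphatase subunit GADD34 (-0.22), and SLC38A2, an amino acid transporter (-0.19). ATF3 was at 27.0, 29.3 and 30.4 CPM in Vectors and at 18.6, 19.3 and 17.4 CPM in FOXL2C134W + FOXO1 (SE 0.08, edgeR adjusted p = 3.4e-05). DDIT3 was at 31.0, 36.1 and 37.1 CPM and at 28.3, 29.5 and 28.5 CPM, so that Vectors A lay closest to FOXL2C134W + FOXO1.

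The ASNS promoter, chr7:97872409-97872538 (minus), is shown for its match to TGATGNAA, the core of the amino acid response element, which begins 68 bases before the start.
ASNS: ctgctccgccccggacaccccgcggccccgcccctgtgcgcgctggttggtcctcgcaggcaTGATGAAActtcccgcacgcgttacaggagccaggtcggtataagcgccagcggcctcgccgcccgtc
Of the 19 higher members with a promoter in the table, 5 (26.3%) held these letters, against 3.67% of all promoters and 15 of 463 (3.24%) of all higher genes. The share was much the same in the whole list, 9 of 35 (25.7%), and in its lower members, 1 of 4 (25%). Over all genes it was 1.69% of those tested with a promoter and 1.82% of the lower ones.

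The list of FOXO targets holds genes that FOXO factors are known to bind or activate, and most of those called were lower. Of 44 tested members 15 were lower and 1 higher, 34.1% against 5.16% of all genes called lower, with a median log2 fold change of -0.15. Under the other settings 9 to 17 were lower, the lowest number with transcript-length offsets in DESeq2. PMAIP1, the BH3-only protein NOXA that promotes apoptosis, was at 272, 281 and 286 CPM in Vectors and at 185, 180 and 181 CPM in FOXL2C134W + FOXO1 (-0.62, SE 0.04, edgeR adjusted p = 1.8e-08). TXNIP, the inhibitor of thioredoxin and glucose uptake, was at 215, 202 and 206 CPM and at 152, 150 and 157 CPM (-0.44, SE 0.05, edgeR adjusted p = 1.2e-05). The conditions did not overlap in either. TNFSF10, KLF4 and SOD2, given above, also belong to this list. SOD2 was given with the NF-kappaB genes, KLF4 is also an immediate early gene and PMAIP1 also a p53 target, so the counts of these lists share members.

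Members that act on the cell cycle and on protein turnover were lower too. CCNG2, an atypical cyclin of quiescent cells, was at 30.0, 28.7 and 27.0 CPM in Vectors and at 18.2, 17.5 and 19.9 CPM in FOXL2C134W + FOXO1 (-0.62, SE 0.09, edgeR adjusted p = 1.2e-04). CDKN1B, the cell cycle inhibitor p27, was at 272, 269 and 262 CPM and at 224, 223 and 222 CPM (-0.27, SE 0.04, edgeR adjusted p = 1.7e-04). FBXO32, the ubiquitin ligase atrogin-1 (-0.66), PIK3IP1, an inhibitor of PI3-kinase (-0.82), and BCL2L11, the BH3-only protein BIM (-0.37), also fell. KLF2, a zinc finger factor, was the 1 member that rose (0.40, SE 0.10, edgeR adjusted p = 0.017), at 23.8, 26.2 and 26.6 CPM and at 33.7, 37.8 and 29.2 CPM. BCL2L11 turned to 0.42 with transcript-length offsets in DESeq2.

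The forkhead letters GTAAACA were found in 5 of the 40 FOXO targets with a promoter in the table (12.5%) and in 3 of the 14 called lower (21.4%), against 3.41% of all promoters. The TXNIP promoter, chr1:145996580-145996709 (minus), is shown because its match begins 124 bases before the start of a lowered target.
TXNIP: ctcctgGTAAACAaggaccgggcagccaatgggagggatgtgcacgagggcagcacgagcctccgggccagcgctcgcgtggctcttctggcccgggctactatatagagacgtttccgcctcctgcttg
Among all called genes, 15 of 549 lower genes (2.73%) and 6 of 463 higher genes (1.3%) held the letters, against 2.26% of the tested genes with a promoter.

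TGF-beta and SMAD3 targets were called in both directions. Of 38 tested members 6 were higher (15.8%, against 4.17% of all genes) and 7 lower (18.4%, against 5.16%), with a median log2 fold change of 0.01. When 1 of the 6 libraries was left out, 4 to 6 were lower, with 4 without FOXL2C134W + FOXO1 A or without C. CCN2, a matricellular protein also called CTGF, was at 864, 946 and 971 CPM in Vectors and at 1264, 1256 and 1213 CPM in FOXL2C134W + FOXO1 (0.42, SE 0.05, edgeR adjusted p = 2.8e-05), and the related CCN1 rose by 0.36. COL1A1, a chain of type I collagen, was at 1582, 1514 and 1517 CPM and at 1096, 1269 and 1107 CPM (-0.41, SE 0.05, edgeR adjusted p = 6.1e-05). COL3A1, of type III collagen, fell by 0.45 on the log2 scale. SMAD7, the inhibitory SMAD and a classical target, was at 52.4, 55.6 and 59.7 CPM and at 58.8, 58.8 and 52.1 CPM (0.02, SE 0.06), a difference within the spread of its replicates.

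Members of the matrix and cytoskeleton lists were called in both directions, and most were not called. Of 45 tested basement membrane and collagen genes 13 were lower (28.9%, against 5.16%) and 2 higher, with a median log2 fold change of -0.14, and their summed level was 18172 to 18941 CPM in Vectors and 16924 to 17795 CPM in FOXL2C134W + FOXO1. SDC4, the heparan sulfate proteoglycan syndecan-4, was at 289, 279 and 271 CPM and at 205, 204 and 195 CPM (-0.47, SE 0.05, edgeR adjusted p = 2.8e-06). THBS1, the adhesive glycoprotein thrombospondin-1, rose from 2190, 2284 and 2347 CPM to 2872, 2810 and 2888 CPM (0.33, SE 0.04, edgeR adjusted p = 2.8e-05). Of 40 actin cytoskeleton and focal adhesion genes 15 were higher (37.5%, against 4.17%) and 2 lower, with a median of 0.08, and 9 were higher with transcript-length offsets in DESeq2. ACTN1, the actin crosslinker alpha-actinin-1, was at 671, 684 and 693 CPM and at 816, 866 and 855 CPM (0.31, SE 0.04, edgeR adjusted p = 3.0e-05). The tropomyosins TPM1 (0.27) and TPM2 (0.29) and the calponin CNN2 (0.37) rose with it, while the 2 that fell were the integrin chains ITGAV (-0.21) and ITGA5 (-0.18). The summed level of the 8 stromal markers, which include COL1A1, was 1652 to 1718 CPM in Vectors and 1225 to 1403 CPM in FOXL2C134W + FOXO1. HGrC1 is a cell line, so these levels do not show that stromal cells were present.

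The called members of the lipid and lysosome lists were all lower, and most members were not called. Of 36 tested genes of cholesterol synthesis and uptake 12 were lower (33.3%, against 5.16% of all genes), 0 higher and 24 not called, with a median log2 fold change of -0.12, and 6 were lower with transcript-length offsets in DESeq2. SCD, the desaturase that makes oleate, was at 106, 94.7 and 93.8 CPM in Vectors and at 67.5, 64.6 and 67.0 CPM in FOXL2C134W + FOXO1 (-0.57, SE 0.06, edgeR adjusted p = 5.0e-06). INSIG1, which holds the sterol sensor SCAP in the endoplasmic reticulum, fell by 0.47 on the log2 scale, and MYLIP, the ligase that degrades the LDL receptor, fell by 0.66. Of 45 lysosome and autophagy genes 14 were lower (31.1%), 0 higher and 31 not called, with a median of -0.14, and 7 were lower with transcript-length offsets in DESeq2. SQSTM1, the autophagy receptor p62, fell by 0.27, and PSAP, the precursor of the saposins, fell by 0.20 on the log2 scale.

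Most protein folding genes were not called. Of 29 endoplasmic reticulum genes 6 were lower (20.7%, against 5.16% of all genes), 1 higher and 22 not called, the higher one being the sensor ATF6 (0.14). PDIA4, a disulfide isomerase, was at 323, 322 and 321 CPM in Vectors and at 275, 276 and 281 CPM in FOXL2C134W + FOXO1 (-0.22, edgeR adjusted p = 0.0015), and the chaperone HSPA5, or BiP, fell by 0.15. Of 23 heat shock genes 6 were higher (26.1%, against 4.17%), 2 lower and 15 not called, and 3 were higher with transcript-length offsets in DESeq2. The mitochondrial chaperones HSPA9 (0.23) and HSPD1 (0.18) and the cytosolic HSPA8 (0.20) and FKBP4 (0.19) rose. HSPA1A (-0.14) and HSPA1B (-0.19), the 2 that fell, are near-identical copies whose reads cannot be divided with certainty, and neither was called with all libraries reduced to the same depth.

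Called p53 targets were all lower. Of 28 tested members 7 were lower (25.0%, against 5.16% of all genes) and 0 higher, among them the cell cycle inhibitor CDKN1A, which was at 78.5, 80.1 and 79.2 CPM in Vectors and at 63.3, 66.9 and 62.9 CPM in FOXL2C134W + FOXO1 (-0.30, SE 0.06, edgeR adjusted p = 0.0027). With transcript-length offsets in DESeq2, or without FOXL2C134W + FOXO1 C, 4 of them were lower. Of 51 mitosis and G2/M genes 6 were lower (11.8%) and 0 higher, a count that ran from 1 to 4 when any of the 6 libraries was left out, with 1 without Vectors A, and that was 3 with transcript-length offsets in DESeq2. PTTG1, the securin that holds sister chromatids together, fell by 0.24 and CDK1, the mitotic kinase, fell by 0.16. Of 54 genes of DNA replication 2 were higher (3.70%) and 1 lower (1.85%), both shares below those of all genes, with CDC6 and MCM6, both of origin licensing, each at 0.14 and the sliding clamp PCNA at -0.14. Of 34 immediate early genes 5 were higher (14.7%), MYC (0.30), SRF (0.30) and JUN (0.16) among them, and 5 were lower (14.7%), KLF4, FOS (-0.51) and JUNB (-0.35) among them. There were 2 higher genes without Vectors A or FOXL2C134W + FOXO1 B, 2 lower genes without Vectors C or FOXL2C134W + FOXO1 A or C, and 3 lower genes without Vectors B.

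Growth factor receptors and ligands were also mixed. Of 40 receptor tyrosine kinase and growth factor genes 3 were higher (7.50%, against 4.17% of all genes) and 5 lower (12.5%, against 5.16%), and 2 were lower without Vectors A and 3 without FOXL2C134W + FOXO1 A. IGFBP6, which binds IGF2, was at 128, 121 and 125 CPM in Vectors and at 80.7, 94.3 and 84.6 CPM in FOXL2C134W + FOXO1 (-0.52, SE 0.07, edgeR adjusted p = 1.7e-04). IGFBP5, a related binding protein, was at 52.3, 52.6 and 52.7 CPM and at 66.2, 71.6 and 68.2 CPM (0.39, SE 0.06, edgeR adjusted p = 2.8e-04). BAMBI, the decoy receptor of TGF-beta and BMP, was at 80.8, 75.9 and 77.7 CPM and at 61.4, 59.2 and 58.9 CPM (-0.39, SE 0.05, edgeR adjusted p = 1.2e-04). TGFB2, the ligand TGF-beta 2, was at 271, 271 and 266 CPM and at 317, 316 and 328 CPM (0.25, SE 0.04, edgeR adjusted p = 4.2e-04), and TGFB1 at 77.2, 77.9 and 76.1 CPM and at 73.4, 80.1 and 70.7 CPM did not pass the test (-0.04).

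Some of the calls against Vectors did not hold with transcript-length offsets in DESeq2. Of the genes given above as higher or lower, GBP4, TNFSF13B, NFKB2, STAT2, CD68, DDIT3, SLC38A2, CDKN1B, FBXO32, BCL2L11, KLF2, NDUFAF8, NPDC1, TPM1, ITGAV, PSAP, SQSTM1, ATF6, FKBP4, HSPA9, HSPA1B, CDKN1A, CDK1, CDC6, FOS and JUN were not called under that setting.

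FOXL2C134W and FOXL2WT + FOXO1 were set beside these values, while FOXL2WT was not tested against Vectors. The conditions tested were compared with the same Vectors libraries, so their differences from Vectors are not independent of each other. In FOXL2WT the NF-kappaB list summed to 2829 to 2893 CPM and the interferon list to 20122 to 20351 CPM, both below Vectors. The ATF4 list summed there to 9841 to 10426 CPM, above both Vectors and FOXL2C134W + FOXO1. Of all genes 14.7% were called in FOXL2C134W and 3.78% in FOXL2WT + FOXO1. In FOXL2C134W, where 7.24% were lower than in Vectors, 25 of the 39 NF-kappaB genes were lower (median -0.57), and in FOXL2WT + FOXO1, where 2.37% were, 19 were lower (median -0.38). For interferon genes the numbers lower were 34 of 52 in FOXL2C134W and 24 in FOXL2WT + FOXO1. For ATF4 genes the numbers higher were 26 and 27 of 41, against backgrounds of 7.48% and 1.41%. FOXO targets lower than in Vectors numbered 15 of 44 in FOXL2C134W, where no FOXO1 was transfected, and 7 in FOXL2WT + FOXO1.

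**Figure D4:**
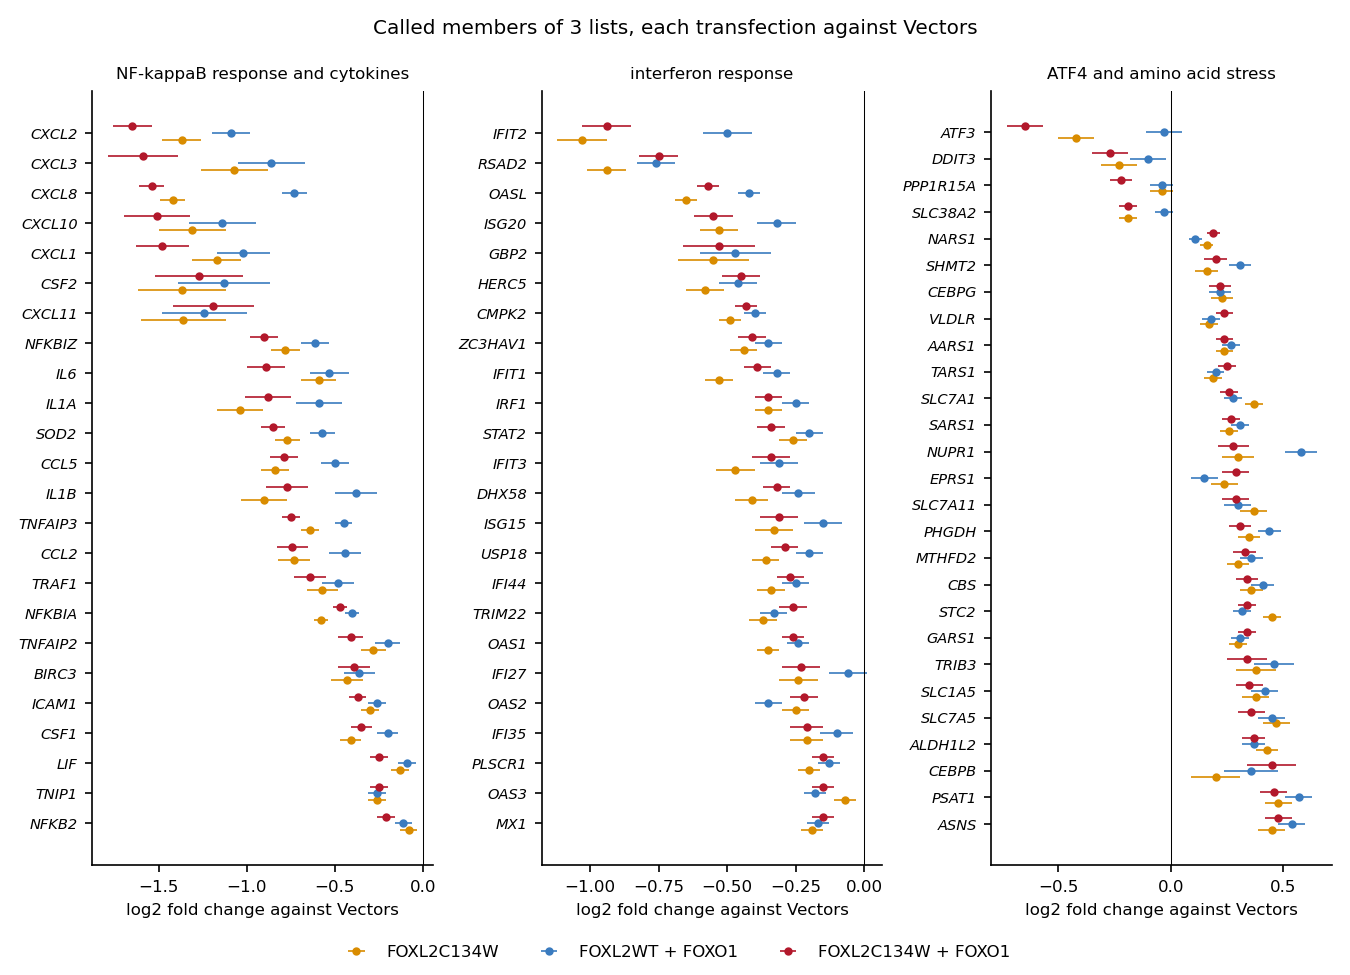
Log2 fold change against Vectors with its SE (x axis) of the called members of the NF-kappaB, interferon and ATF4 lists (y axis) in FOXL2C134W, FOXL2WT + FOXO1 and FOXL2C134W + FOXO1, all set against the same Vectors libraries. IFNB1, at -3.89 in FOXL2C134W + FOXO1, is left out. CXCL8 was at -1.42, -0.73 and -1.54 in the 3 conditions, and ASNS at 0.45, 0.54 and 0.48.

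The direct comparison with FOXL2C134W asks what FOXO1 adds to the mutant. Few genes differed: 99 of 13868 (0.714%) passed the test, 1 higher (0.00721%) and 98 lower (0.707%), while 1557 had an unadjusted p under 0.05 and 14.0% of all genes did not overlap. FOXO1 was the 1 higher gene (1.85, SE 0.09, edgeR adjusted p = 5.8e-10), and SMAD3, transfected in both, was among the lower ones (-1.11, SE 0.05, edgeR adjusted p = 8.1e-11). With transcript-length offsets in DESeq2 these values were 5.51 (SE 0.52) for FOXO1 and -1.73 (SE 0.08) for SMAD3. FOXL2 did not pass the test (0.05, SE 0.10, edgeR adjusted p = 0.92). The number called depended on single libraries of both conditions. It was 5 without FOXL2C134W B, without FOXL2C134W C or without FOXL2C134W + FOXO1 C, 11 without FOXL2C134W + FOXO1 A, 231 without FOXL2C134W + FOXO1 B and 355 without FOXL2C134W A. DESeq2 called 215 genes, and with transcript-length offsets 56, of which 15 were higher. FOXL2C134W A stood apart from B and C, with chi-square values for each degree of freedom of 7.44 and 8.39, against 2.54 between B and C. FOXL2C134W + FOXO1 B and C gave 6.88. In the longest of 5 length bins, the median log2 difference from the Vectors mean was -0.001 in FOXL2C134W A, 0.118 in B and 0.098 in C. In the shortest bin it was 0.006, -0.070 and -0.086. In both bins A lay nearer Vectors than B and C did, and the cause was not tested.

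The other 97 lower genes were long and GC-rich on the whole. Their median transcript length was 4283 nt and their median GC content 59.5%, against 2110 nt and 49.1% over all genes tested, and the part of length and GC content in the difference was not tested beyond the offsets given with the processing settings. They had a median log2 fold change against Vectors of 0.36 in FOXL2C134W and of -0.04 in FOXL2C134W + FOXO1, values that share libraries with the comparison that chose them. MKI67, the proliferation marker Ki-67, was at 39.9, 63.9 and 60.6 CPM in FOXL2C134W, at 29.4, 35.1 and 31.9 CPM in FOXL2C134W + FOXO1 (-0.77, SE 0.15, edgeR adjusted p = 0.022) and at 40.8, 32.6 and 29.6 CPM in Vectors. FOXL2C134W A was within the Vectors range, and B and C were well above it. KMT2D, a histone H3 lysine methyltransferase, was at 36.1, 56.2 and 46.7 CPM in FOXL2C134W and lower in FOXL2C134W + FOXO1 (-0.66, SE 0.13, edgeR adjusted p = 0.022).

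Chromatin, signaling and basement membrane genes were among them. GLI2, a transcription factor of Hedgehog signaling, was at 25.9, 27.6 and 25.8 CPM in FOXL2C134W, at 19.8, 19.0 and 17.9 CPM in FOXL2C134W + FOXO1 (-0.48, SE 0.08, edgeR adjusted p = 0.013) and at 18.6, 18.8 and 16.8 CPM in Vectors. SMARCA4, the ATPase of the SWI/SNF remodeler, was at 106, 115 and 119 CPM, at 82.6, 95.0 and 93.1 CPM (-0.33, SE 0.06, edgeR adjusted p = 0.015) and at 84.5, 76.2 and 80.2 CPM. In both genes the 3 FOXL2C134W libraries stood above the 6 others. HSPG2, the proteoglycan perlecan, was at 276, 360 and 321 CPM in FOXL2C134W and at 213, 268 and 205 CPM in FOXL2C134W + FOXO1 (-0.48, SE 0.10, edgeR adjusted p = 0.027). COL4A2, a chain of type IV collagen, was at 2042, 2136 and 2175 CPM and at 1679, 1871 and 1801 CPM (-0.25, SE 0.05, edgeR adjusted p = 0.021). COL5A1 (-0.33), COL18A1 (-0.36), the ribosome receptor RRBP1 (-0.46) and the remodeler EP400 (-0.45) were lower as well. By the naming rule the lowest further genes were NPIPB5 (-0.94), NPIPA1 (-0.64) and BAHCC1 (-0.79), of which NPIPB5 and NPIPA1 belong to a family of near-identical copies and are uncertain.

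**Figure D5:**
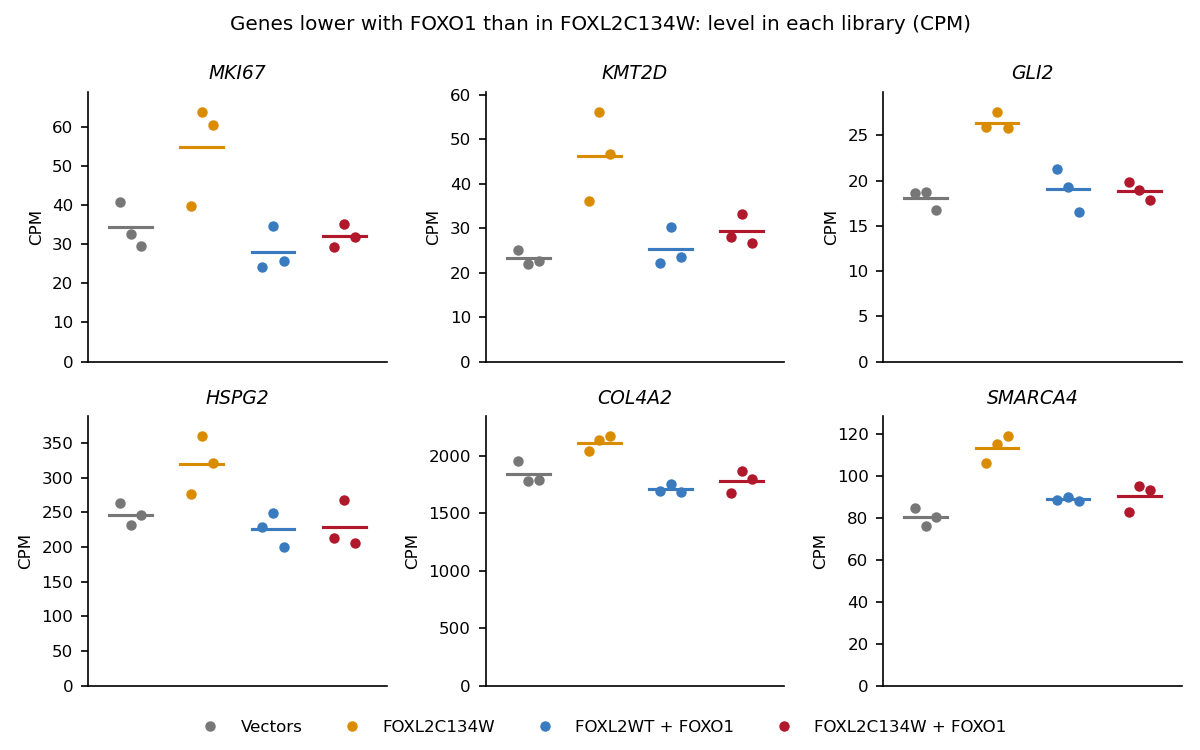
Level in CPM (y axis) of 6 genes called lower in FOXL2C134W + FOXO1 than in FOXL2C134W, in each library (points) of 4 transfections (x axis), with the line at the mean of 3 libraries. GLI2 was at 25.8 to 27.6 CPM in FOXL2C134W and at 17.9 to 19.8 CPM in FOXL2C134W + FOXO1, while MKI67 in FOXL2C134W ran from 39.9 to 63.9 CPM.

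By list, the lower members were few in number. They were 5 of 45 basement membrane genes, 7 of 53 chromatin remodeling genes, 5 of 40 actin genes and 7 of 12 mitochondrially encoded genes, against the background of 0.707%. These counts did not hold when single libraries were left out. Without FOXL2C134W B, without FOXL2C134W C or without FOXL2C134W + FOXO1 C, no member of the basement membrane, actin and mitochondrially encoded lists was called lower. Without FOXL2C134W + FOXO1 A 4 mitochondrially encoded genes were, MT-ATP6, MT-CO1, MT-CYB and MT-ND4, and no basement membrane or actin gene. Without FOXL2C134W A the counts were 9, 23, 13 and 10 in the same order of lists. With a GC content offset they were 1, 4, 2 and 7, and with only the compared libraries 0, 1, 2 and 5. MT-ND4, a subunit of respiratory complex I, was at 372, 453 and 461 CPM in FOXL2C134W, at 321, 297 and 286 CPM in FOXL2C134W + FOXO1 (-0.51, SE 0.08, edgeR adjusted p = 0.01) and at 270, 275 and 279 CPM in Vectors. Among the 26 genes named in the study text 10 were lower than in FOXL2C134W, a list drawn from these samples and so not independent evidence. None of the 39 NF-kappaB, 52 interferon or 41 ATF4 genes was called in this comparison. CXCL8 was at 51.6, 51.7 and 57.3 CPM in FOXL2C134W and differed by -0.12 (SE 0.07, edgeR adjusted p = 0.57), and ASNS was at 211, 196 and 192 CPM and differed by 0.03 (SE 0.06, edgeR adjusted p = 0.91). A difference that misses the threshold does not show that the levels were equal.

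The comparison with FOXL2WT + FOXO1 sets the mutant against normal FOXL2 with FOXO1 present in both. It called 20 genes of 13868 (0.144%), 5 higher (0.0361%) and 15 lower (0.108%), while 1878 had an unadjusted p under 0.05 and 15.2% of all genes did not overlap. The 3 transfected genes were all lower, FOXL2 (-1.33), SMAD3 (-1.31) and FOXO1 (-1.44). The number called was 7 without FOXL2C134W + FOXO1 A, 11 without C, 13 without FOXL2WT + FOXO1 A and 12 without FOXL2WT + FOXO1 B. The balance of directions moved with the tool and setting. DESeq2 called 85 higher and 56 lower, but gave an adjusted p for only 4665 genes and shared 11 of the 20 calls. It called 32 and 31 with transcript-length offsets, and edgeR 17 and 31 with a length offset and 40 and 59 with length and GC content offsets. The log2 fold change had a Spearman correlation of 0.29 with length and -0.25 with GC content, and their part was not tested.

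Of the remaining 17 genes, CXCL8, NEAT1, PMAIP1 and ATF3 were called in all 6 fits that left out a library. CXCL8 was at 95.4, 85.9 and 79.5 CPM in FOXL2WT + FOXO1 and at 51.8, 44.6 and 51.2 CPM in FOXL2C134W + FOXO1 (-0.82, SE 0.07, edgeR adjusted p = 2.1e-06). NEAT1 was at 37.6, 34.9 and 33.5 CPM and at 18.1, 21.1 and 18.4 CPM (-0.87, SE 0.10, edgeR adjusted p = 1.4e-04). PMAIP1 was at 240, 225 and 231 CPM and at 185, 180 and 181 CPM (-0.35, SE 0.04, edgeR adjusted p = 1.4e-04). ATF3 was at 31.1, 27.0 and 27.4 CPM and at 18.6, 19.3 and 17.4 CPM (-0.62, SE 0.08, edgeR adjusted p = 6.5e-04). In these 4 genes the conditions did not overlap. For CXCL8, NEAT1 and PMAIP1 the FOXL2WT + FOXO1 libraries lay between Vectors and FOXL2C134W + FOXO1, and for ATF3 they overlapped Vectors.

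The other genes called were less firm. KLF4 was at 12.3, 12.4 and 13.4 CPM in FOXL2WT + FOXO1 (-0.52, SE 0.08, edgeR adjusted p = 0.0075) and ZFP36L2, which promotes mRNA decay, at 62.4, 61.9 and 61.8 CPM (-0.34, SE 0.05, edgeR adjusted p = 0.0054), and each was called in 5 of the 6 fits that left out a library. SELENOW, a small selenoprotein, was called in 3 of 6 (-0.57), GEMIN5, a subunit of the SMN complex, in 2 of 6 (0.24), and TNFAIP3 (-0.29), the tissue factor gene F3 (0.24), ZNF185 (0.22), ANKRD13A (0.18), NDRG2 (-0.45) and SAT1 (-0.35), which breaks down polyamines, in 1 of 6. PIK3IP1 (-0.71) and AK4 (0.65), an adenylate kinase, were called in none. STK19B had no counts in FOXL2C134W + FOXO1 and 1.88, 0.882 and 0.722 CPM in FOXL2WT + FOXO1, a level too low to compare.

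Over all genes 0.108% were lower than in FOXL2WT + FOXO1. Of the lists, 2 of 39 NF-kappaB genes were lower, CXCL8 and the less firm TNFAIP3, and none was higher. CXCL2 was at 9.22, 9.60 and 10.1 CPM in FOXL2WT + FOXO1 and did not pass the test although its libraries did not overlap (-0.56, SE 0.12, edgeR adjusted p = 0.081). None of the 52 interferon genes was called. Of 44 FOXO targets 3 were lower, PMAIP1, KLF4 and the less firm PIK3IP1, and of 41 ATF4 genes 1 was lower, ATF3.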

How the data were processed

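RNA of passage-14 HGrC1 cells was sequenced, 15 libraries in all. The authors quantified transcripts with Salmon 1.1.0 and deposited estimated counts and TPM per transcript and library. The annotation release is not given in the sources used here. Of 227063 transcripts, 98.4% matched GENCODE 44, which gave names and coordinates (GRCh38). From these files, estimated counts were summed per gene and rounded (37787 genes), and the deposited TPM values served to weight transcript lengths. Genes kept by filterByExpr (13868) were fitted over all 15 libraries in edgeR 4.0.16 (TMM, quasi-likelihood test, Benjamini-Hochberg adjusted p of 0.05, R 4.3.3, limma 3.58.1), after tests on simulated counts. CPM values use TMM-scaled library sizes, and SE is that of the log2 fold change. Alternatives included DESeq2 1.42.0, with and without transcript-length offsets, other filters, length and GC offsets (together, chosen after seeing the data), a replicate block, equal depth and leaving out each library. Promoters came from RefSeq (GRCh38.p14), matched by symbol for 10794 of 13868 genes. Python 3.11.15 (matplotlib 3.10.9, numpy 2.4.6, pandas 2.3.3) ran the scripts.

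The comparison, gene lists and tests were chosen with earlier results of these data known. Named genes were the transfected genes, the 10 largest and 10 smallest called changes against Vectors and 5 and 5 in the other comparisons (mean of at least 5 CPM, no overlap), up to 4 members a list by p, the genes of the study text and the 3 highest of each marker list. The other members of lists, among them the NF-kappaB subunits, the interferon factors, ATF4, IFNB1, B2M, PSAT1, TXNIP, CCNG2, CDKN1B, FBXO32, PIK3IP1, BCL2L11, KLF2, SMAD7 and the chemokines other than CXCL8, CXCL2 and CCL4L2, and the genes called against FOXL2WT + FOXO1 past the first 5, were named after their values were seen. Some list members are not reported here.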

Additional observations from a re-analysis of the deposited data

Results flagged for a closer look

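The effect against Vectors differed between FOXL2C134W + FOXO1 and another transfected condition for the genes below, by the edgeR test of the difference itself, and each value is the log2 fold change in FOXL2C134W + FOXO1 minus that in the other condition. This test is the direct comparison of the transfected conditions given above, so the values repeat it and are not further evidence. All 3 conditions share the Vectors libraries, and the transfected levels of SMAD3, and of FOXO1 and FOXL2 in the second set, differed with them.

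Against FOXL2C134W, 8 genes that were also called against Vectors differed. NEAT1 differed by -0.62, with -1.35 against Vectors in FOXL2C134W + FOXO1 and -0.73 in FOXL2C134W. TAPBP differed by -0.22, MAPK8IP3, a scaffold of JNK signaling, by -0.72, ULK1, the kinase that starts autophagy, by -0.37 and HELZ2, a helicase coactivator, by -0.24. MT-ND2, a mitochondrially encoded complex I subunit, differed by -0.29, the actin crosslinker FLNA by -0.23 and TNS1, the adhesion protein tensin-1, by -0.27, and these 3 were higher than Vectors in both conditions. Each of the 8 was called in 2 of the 6 fits that left out a library. MAPK8IP3, TNS1, ULK1 and HELZ2 were named after their values were seen.

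Against FOXL2WT + FOXO1, 14 such genes differed. CXCL8 differed by -0.82 and NEAT1 by -0.87, ATF3 by -0.62, PIK3IP1 by -0.71, KLF4 by -0.52, NDRG2 by -0.45, PMAIP1 by -0.35, SAT1 by -0.35, ZFP36L2 by -0.34 and TNFAIP3 by -0.29. GEMIN5 differed by 0.24, F3 by 0.24, ZNF185 by 0.22 and ANKRD13A by 0.18. Leaving out any of the 6 libraries kept CXCL8, NEAT1, ATF3 and PMAIP1 past the threshold.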

How the results depend on the processing

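Against Vectors, 1294 genes were called, and 719 with transcript-length offsets in DESeq2, 2131 with gene length and GC content offsets and 764 to 1122 when 1 library was left out, with 764 without Vectors A and 842 without Vectors B. Against FOXL2C134W, 99 were called, and 215 in DESeq2, 56 with its transcript-length offsets, 463 with at least 1 count in any library, 170 with at least 10 in every library, 32 with only the compared libraries, 54 with a GC offset and 5 to 355 when 1 library was left out. Against FOXL2WT + FOXO1, 20 were called, and under these settings 141, 63, 446, 32, 9 and 55, with 48 under a length offset, 99 under both offsets, 40 with the block and a length offset, and 7 to 20 when 1 library was left out. Of those 20 genes 25.0% were higher, against 60.3% of the 141 in DESeq2, which gave an adjusted p for 4665 genes. The replicate letters did not pair the libraries (same-letter correlations of deviations -0.063 to 0.124), and a replicate block called 1261, 88 and 18 genes. The cause of these differences was not tested.

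Some directions turned, nearly all in genes not called. With transcript-length offsets in DESeq2, RELA gave 0.07, BCL2L11 0.42, SMAD7 -0.02, JAG2 -0.43 and GLI2 -0.17 against Vectors. WT1 gave -0.00 with a GC offset, and at equal depth SMAD7 gave -0.02 and WT1 -0.03. When 1 library was left out, SMAD7 ran from -0.03 to 0.07, WT1 from -0.05 to 0.05, MKI67 from -0.19 to 0.05, DLG5 from -0.09 to 0.03 and POLQ from -0.04 to 0.03. Against FOXL2C134W, FOXL2 ran from -0.07 to 0.19 and ASNS gave -0.01 with both offsets. Of 3563 other values of the 198 genes named against Vectors, 3218 kept direction and side of the threshold.

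The depth of 20234179 to 24951854 counts leaves genes of a few counts, such as IFNB1 and STK19B, with wide counting error. Intervals cover counting error only.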

Other observations

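The remaining lists complete the picture against Vectors, where 4.17% of all genes were called higher and 5.16% lower. None of 34 tested Hedgehog, Notch and Wnt genes was called in the main edgeR fit, with a median log2 fold change of -0.01. With a gene length offset 5 were lower, and with at least 1 count in any library 3 were higher. Of 65 nuclear genes of oxidative phosphorylation 2 were higher (3.08%), the ATP synthase subunit ATP5F1D (0.34) and the complex I subunit NDUFA10 (0.18). Of 78 cytosolic ribosomal protein genes 1 was higher (1.28%), RPL6 (0.17), and 16 were with gene length and GC content offsets. Of 12 mitochondrially encoded genes 2 were higher (16.7%), MT-ND2 (0.28) and MT-ND3 (0.33), with a median of 0.12, against a median of 0.50 in FOXL2C134W. Of 53 chromatin remodeling genes 1 was higher (1.89%), BRD9 (0.21), with a median of 0.05. The granulosa and steroidogenic list had 1 called gene of 26, CITED4, which was higher (3.85%), and a median of -0.04. STAR, which moves cholesterol into mitochondria, was at 3.84, 3.02 and 2.08 CPM in Vectors and at 2.08, 2.30 and 1.38 CPM in FOXL2C134W + FOXO1, and the conditions overlapped.

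Of 34 BMP, activin and inhibitor genes 1 was higher (2.94%, against 4.17% of all genes), ID1 (0.25). The 2 that were lower (5.88%, against 5.16%) were BAMBI and ID2 (-0.21). Of 34 NRF2 antioxidant genes 2 were higher (5.88%), the cystine transporter SLC7A11 (0.29) and thioredoxin reductase TXNRD1 (0.20), and 2 lower (5.88%), the ferritin light chain FTL (-0.22) and PIR (-0.24). Of the 26 genes named in the study text, a list drawn from these samples, 6 were higher (23.1%) and 5 lower (19.2%). When 1 library was left out, 3 to 5 were higher and 5 to 6 lower.

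Markers of other cell types were mostly low or mixed. The simple keratin KRT7, an epithelial marker, was at 1154, 1360 and 1360 CPM in Vectors and at 1826, 1911 and 1649 CPM in FOXL2C134W + FOXO1 (log2 fold change 0.48, edgeR adjusted p = 0.001), and KRT18 rose by 0.15. MUC16 had 0 counts in all 6 libraries and CDH1, which encodes E-cadherin, at most 12. The summed level of the 9 epithelial markers was 5782 to 6117 CPM in Vectors and 6557 to 7075 CPM in FOXL2C134W + FOXO1. The 6 endothelial markers summed to 34.8 to 38.0 CPM and to 26.3 to 31.4 CPM, the 6 Sertoli cell markers to 74.7 to 76.2 CPM and to 76.1 to 80.4 CPM, and the 6 theca and luteal markers to 2.16 to 3.92 CPM and to 1.51 to 2.39 CPM.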
